A study of Mus musculus with 12 samples.

Results

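A set of 10 genes of vitamin D metabolism, phosphate reabsorption and distal calcium transport were followed across 12 mouse kidney RNA-seq libraries. They were taken by name from the 56748 genes of the deposited expression table: Cyp24a1, Cyp27b1, Cyp2r1, Vdr, Kl, Pth1r, Slc34a1, Slc34a3, Calb1 and Trpv5. Their levels are in FPKM (fragments per length of gene model and library size). Of the 10 members, 9 were among the 12868 genes that reached a mean of 1 FPKM over the libraries, the level set for testing. Cyp2r1 was below that level and is described by its values. The study asked what the keratin gene Krt20 does in acute kidney injury.

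There were 4 groups of 3 libraries, all from kidneys of male mice aged 8 to 12 weeks. The KRT20-cKO (cKO) mice lacked Krt20 in renal proximal tubular cells and were studied after ischemia/reperfusion (cKO IR) or after a sham operation (cKO sham). Wild-type mice had the same operations (WT IR and WT sham). In IR, both renal pedicles were clamped for 30 min under pentobarbital, and the kidneys were collected 24 h after release. Sham mice had the operation without the clamp. The sources used here do not say what drove the deletion or whether the WT mice carried any of its alleles. Nothing in the labels says that each library was a separate mouse, so p-values measure the spread between libraries.

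The kidney controls how much active vitamin D and phosphate the body holds. Proximal tubule cells take up vitamin D bound to its carrier protein, activate it with CYP27B1 and inactivate it with CYP24A1, while sodium-phosphate cotransporters of the SLC34 family draw phosphate back from the filtrate. Parathyroid hormone (PTH), through its receptor PTH1R, and the bone hormone FGF23, through FGF receptors joined to klotho (Kl), both withdraw these cotransporters, but push CYP27B1 in opposite directions. Further along the nephron, TRPV5 and calbindin carry calcium through distal convoluted and connecting tubule cells under the control of the vitamin D receptor.

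Slc34a1 and Slc34a3, the phosphate cotransporters of the proximal tubule, both fell after IR in each genotype. In cKO the ratio of means, IR over sham, was 0.139 for Slc34a1 and 0.0619 for Slc34a3. On log2(FPKM + 1), a scale that shrinks differences at the low Slc34a3 levels of cKO IR, they had the closest profiles of any pair among the 9 tested members. Their promoters are shown because of that rank, which was not computed without the added 1. The sequences are from RefSeq on GRCm38.p6, run 5′ to 3′ on the gene's strand, and cover 250 bases before to 50 bases after the annotated start. The Slc34a1 window is chr13:55399398-55399697 on the plus strand and the Slc34a3 window is chr2:25234185-25234484 on the minus strand. Capitals mark the motifs AGGTCA (the half-site of many nuclear receptors) and GTTAAT (a half-site of the HNF1 factors), each on either strand, and TATAAA on the gene's strand only.
Slc34a1: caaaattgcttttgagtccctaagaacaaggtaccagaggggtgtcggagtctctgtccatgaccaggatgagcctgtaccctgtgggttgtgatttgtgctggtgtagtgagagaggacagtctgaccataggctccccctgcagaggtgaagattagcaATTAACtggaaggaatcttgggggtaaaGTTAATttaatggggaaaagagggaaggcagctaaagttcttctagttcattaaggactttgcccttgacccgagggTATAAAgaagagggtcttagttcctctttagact
Slc34a3: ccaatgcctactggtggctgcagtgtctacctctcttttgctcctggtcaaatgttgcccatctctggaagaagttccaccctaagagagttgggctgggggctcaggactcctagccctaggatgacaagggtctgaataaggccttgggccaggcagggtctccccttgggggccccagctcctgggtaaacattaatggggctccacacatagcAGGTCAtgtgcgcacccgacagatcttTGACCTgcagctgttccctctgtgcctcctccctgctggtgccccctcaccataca

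Promoter entries were found for 8 of the 10 members, with 10 promoters in all. Cyp24a1 and Calb1 had no entry. The Slc34a3 window held AGGTCA on the plus strand of the gene starting 33 bases before the start, and its reverse complement starting 6 bases before it. It was the only window of the 10 with this motif, which occurred in 16.3% of all 32851 promoters of the table. AGGTCA repeated exactly after 3 bases, a form that the vitamin D receptor binds with its partner RXR, was in 0 of the 10 windows. It was in 2 of the 32851, so a match among 10 windows was unlikely beforehand. Looser forms and sites outside the windows were not searched, so the 0 says nothing about binding by the receptor. The Slc34a1 window held GTTAAT 61 bases before the start and its reverse complement starting 89 bases before it. This motif was in 7.1% of all promoters and in no other window of the members. TATAAA, found in 8.32% of all promoters, began 16 bases after the Slc34a1 start and 43 bases before that of Trpv5. The motifs did not overlap each other. They were picked after the sequences were seen, and a match describes letters only.

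The libraries held 13187531 to 15962303 reads recovered from the FPKM values, with 22681 to 23705 genes having a read. Krt20, the targeted gene, averaged 36.9 ± 9.47 FPKM in cKO IR and 69.6 ± 12.7 FPKM in WT IR (SD, n = 3 each), groups that did not overlap, and had 0 to 1 reads in cKO sham libraries against 0 to 4 in WT sham libraries. The IR difference was not called (log2 difference −0.91, adjusted p = 0.132, limma), and the table separates neither the deleted exons nor the cell types. The mitochondrial share of reads was 8.11% to 8.47% in cKO sham and 9.82% to 10.4% in WT sham, without overlap. On the first principal component, with 67.4% of the variance, WT IR 2 lay at 9.8, between the sham libraries and the other IR libraries, which lay at 34.9 to 49.1. Proximal tubule markers identified the tissue as kidney, with 12 of 12 listed markers above the filter. The extraction text names retinas, but the highest group mean of any listed retina gene was 0.268 FPKM.

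A gene was called changed where limma's two-sided test on log2(FPKM + 1) gave p under 0.05 after Benjamini-Hochberg adjustment across the 12868 genes. For genes at a few FPKM, differences on this scale are smaller than the true fold. After IR in cKO kidneys, 2 of the 9 tested members rose and 5 fell, against 27.8% and 23.1% of all tested genes. After IR in WT kidneys, 1 member rose and 5 fell, where 22.6% and 19.5% of all tested genes were called. The median log2 difference of the 9 members was −0.76 in cKO and −1.19 in WT, against 0.02 and 0.01 over all tested genes. Between cKO and WT sham kidneys 0 members rose and 1 fell (0.847% and 0.256% of all genes). The median member difference there was −0.05 and that of all genes was 0.00. Between cKO and WT IR kidneys 0 members were called in either direction (0% and 0% of all genes). At an unadjusted p under 0.05, 4 members and 1926 genes differed in that comparison, and limma-voom called 1 gene. The effect of IR differed between the genotypes in 1 member, upward, where 0.295% of all genes were called upward and 0.583% downward.

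**Figure D1:**
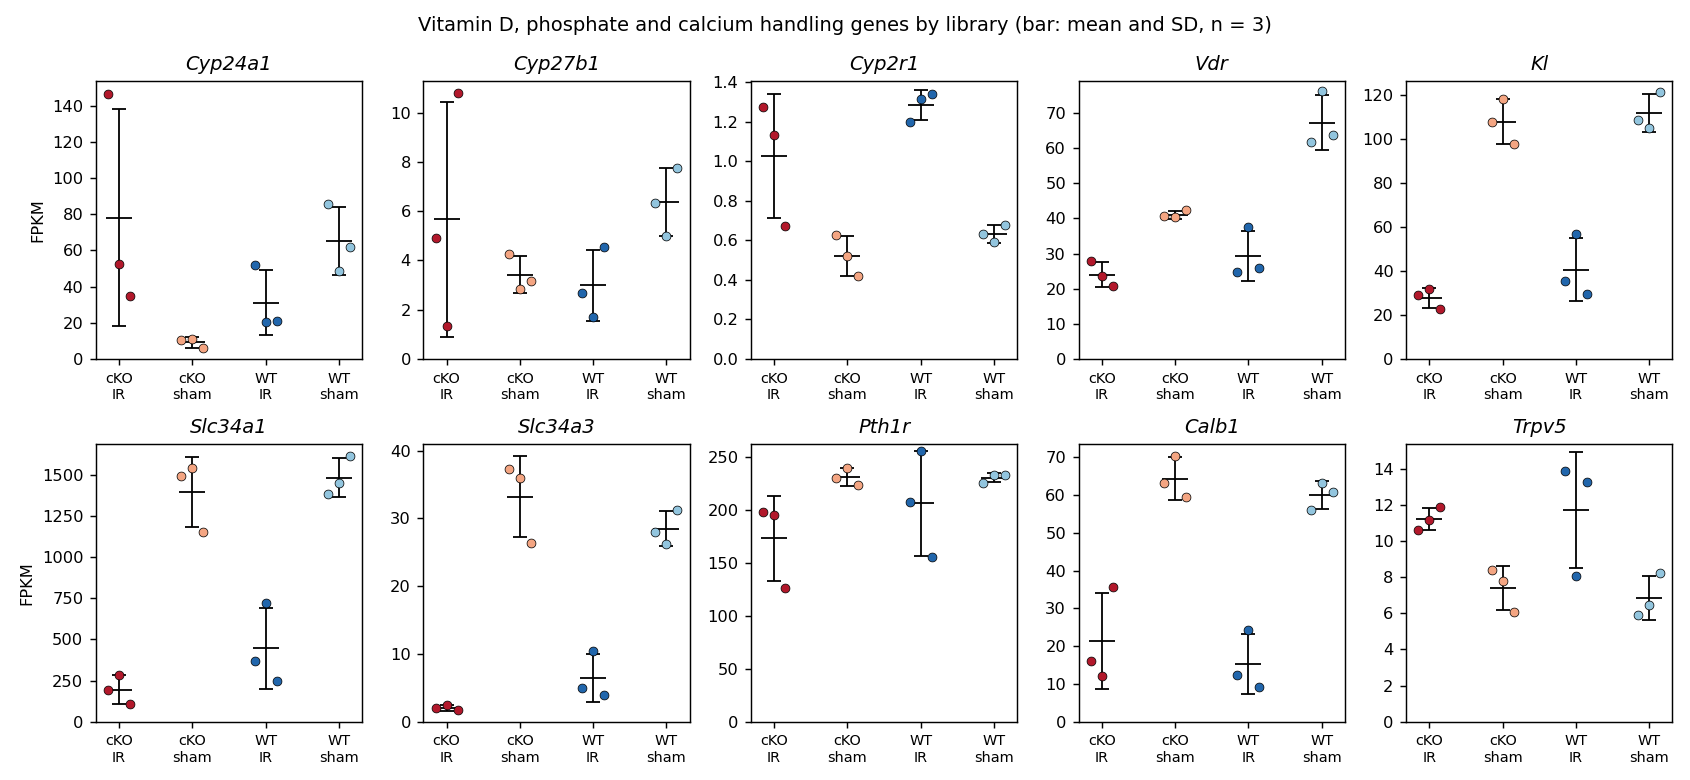
FPKM of each of the 10 members in every library, on a linear axis from 0 for each gene, with the groups cKO IR, cKO sham, WT IR and WT sham from left to right; points are libraries, and bars are the group mean and SD (n = 3). Slc34a1 and Slc34a3 lie lower in all IR libraries than in all sham libraries, while Cyp24a1 is lowest in the 3 cKO sham libraries, at 5.90 to 11 FPKM.

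Cyp24a1 encodes the hydroxylase that inactivates active vitamin D and its precursor (ENSMUSG00000038567, chromosome 2, 170324628 to 170339065, minus strand; coordinates of genes are as deposited, and the table names no build). In sham kidneys it was the member with the largest difference between genotypes. The levels were 147, 52.7 and 34.9 FPKM in the cKO IR libraries and 10.8, 11 and 5.90 FPKM in the cKO sham libraries. In WT kidneys they were 51.8, 20.2 and 21.2 FPKM after IR and 85.5, 48.5 and 62.1 FPKM after sham. The 3 cKO sham libraries lay below every library of the other groups, and cKO IR 1 lay above every other library.

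In sham kidneys Cyp24a1 was lower in cKO, at 9.21 ± 2.87 FPKM, than in WT, at 65.4 ± 18.7 FPKM (SD, n = 3 each). That was a ratio of 0.141 and a log2 difference of −2.71 (SE 0.51, adjusted p = 0.0313). The reads behind it numbered 306 to 580 in cKO sham and 2495 to 4112 in WT sham libraries. After IR the gene rose in cKO kidneys to 78.1 ± 60.0 FPKM, a log2 difference from cKO sham of 2.73 (SE 0.51, adjusted p = 0.00121). Without cKO IR 1 this difference was 2.15 and still called (adjusted p = 0.0029). In WT kidneys the mean after IR was 31.1 ± 17.9 FPKM and the log2 difference was −1.15 (95% interval −2.27 to −0.03), which was not called (adjusted p = 0.0922). One WT IR library lay within the WT sham range.

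Among 6 listed markers of tubular injury, 1 was also called between the sham genotypes. Spp1, which encodes osteopontin, averaged 706.4 ± 45.7 FPKM in cKO sham and 334.7 ± 15.2 FPKM in WT sham, a log2 difference of 1.07 (adjusted p = 0.0217). The other 5 injury markers were not called. Havcr1, Lcn2 and Sox9 averaged 0.769, 0.389 and 0.22 FPKM in cKO sham against 0.397, 0.371 and 0.105 FPKM in WT sham. Vcam1 and Krt18 averaged 2.67 and 5.52 FPKM in cKO sham against 1.38 and 4.53 FPKM in WT sham. The libraries of these last genes did not overlap between the sham genotypes. Of 12 proximal tubule markers 0 were called between the sham genotypes. The part of Spp1, or of the mitochondrial share given above, in the Cyp24a1 difference was not tested.

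The effects of IR on Cyp24a1 had opposite signs in the 2 genotypes, and their difference was 3.88 on the log2 scale (SE 0.72, 95% interval 2.29 to 5.47, adjusted p = 0.0358). This call and the sham call were close to the threshold. With 1 library left out at a time, the sham difference stayed between −2.90 and −2.45 but was called in 5 of 12 fits, and the difference of effects stayed between 3.30 and 4.32 and was called in 3 of 12. After IR itself, cKO and WT kidneys had overlapping Cyp24a1 levels, with a log2 difference of 1.17 (95% interval 0.05 to 2.29, adjusted p = 0.314). The gene model overlaps Pfdn4 on the opposite strand, which had at most 213 reads in a library. The sources used here do not say whether counting used strand.

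Cyp27b1 encodes the hydroxylase that makes active vitamin D (ENSMUSG00000006724, chromosome 10, 126884119 to 126888875, plus strand). It was a low-level gene, at 4.91, 1.33 and 10.8 FPKM in cKO IR and 4.26, 2.83 and 3.17 FPKM in cKO sham. It stood at 2.70, 1.71 and 4.55 FPKM in WT IR against 6.33, 5.0 and 7.77 FPKM in WT sham. All 3 WT IR libraries were below all 3 WT sham libraries, and so were all 3 cKO sham libraries, whereas the cKO IR libraries spread across the whole range.

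None of the 5 comparisons called Cyp27b1. The log2 difference was 0.32 for IR in cKO (95% interval −0.74 to 1.37, adjusted p = 0.603) and −0.93 for IR in WT (−1.98 to 0.12, adjusted p = 0.141). The exact permutation test of the WT means gave p = 0.1, the smallest that 3 libraries against 3 allow. The cKO value for IR moved with single libraries in both directions. It was −0.24 without cKO IR 3 and 0.93 without cKO IR 2, where it was called (adjusted p = 0.0486). Markers of several other cell types had, like Cyp27b1, their highest sums among the IR libraries of each genotype in cKO IR 3 and WT IR 3. The endothelial sum (Pecam1, Cdh5, Kdr and Emcn) was 21.8, 22.6 and 58.4 FPKM in cKO IR and 28.8, 14.3 and 49.5 FPKM in WT IR. The macrophage sum was 49.9, 69.0 and 83.7 FPKM in cKO IR and 73.0, 33.6 and 92.7 FPKM in WT IR. The neutrophil sum was 16.2, 18.4 and 21.9 FPKM in cKO IR and 15.8, 9.98 and 47.9 FPKM in WT IR. The same 2 libraries were also highest for lymphocyte and red blood cell markers, and lowest for proximal tubule markers. Their part in the Cyp27b1 values was not tested.

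In every library the Cyp24a1 transcript had a higher FPKM than the Cyp27b1 transcript. Levels of the enzymes were not measured. The ratio of Cyp24a1 to Cyp27b1 in FPKM was 3.23 to 39.6 in cKO IR and 1.86 to 3.87 in cKO sham. It was 4.65 to 19.2 in WT IR and 8 to 13.5 in WT sham. The cKO sham ratios were below all WT ratios.

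Cyp2r1, whose enzyme carries out the first hydroxylation of vitamin D and is best known from the liver, was barely detected (ENSMUSG00000030670, chromosome 7, 114148917 to 114162207, minus strand). Its values were 1.27, 1.13 and 0.674 FPKM in cKO IR and 0.625, 0.520 and 0.422 FPKM in cKO sham. They were 1.20, 1.31 and 1.34 FPKM in WT IR against 0.630, 0.589 and 0.678 FPKM in WT sham. A library held 13 to 43 reads of it, and IR libraries were above sham libraries in both genotypes without overlap. The ratio of means, IR over sham, was 1.96 in cKO and 2.03 in WT, each with p = 0.1 in the exact permutation test, the smallest possible. With no expression filter limma called both differences, at adjusted p = 0.0399 in cKO and 0.0215 in WT.

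Vdr encodes the nuclear receptor of active vitamin D (ENSMUSG00000022479, chromosome 15, 97752306 to 97808511, minus strand). It fell after IR in both genotypes. The cKO libraries had 27.8, 23.6 and 20.7 FPKM after IR and 40.6, 40.3 and 42.3 FPKM after sham. The WT libraries had 24.7, 37.6 and 25.8 FPKM after IR and 61.8, 76.3 and 63.8 FPKM after sham. IR and sham libraries did not overlap in either genotype, and the cKO sham libraries lay between the WT sham and the WT IR libraries.

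The log2 difference of Vdr was −0.76 in cKO (SE 0.16, adjusted p = 0.00225) and −1.19 in WT (SE 0.16, adjusted p = 0.000288). The difference between these effects, 0.43, was not called (95% interval −0.06 to 0.92, adjusted p = 0.409). Vdr averaged 41.1 ± 1.09 FPKM in cKO sham and 67.3 ± 7.87 FPKM in WT sham (SD, n = 3 each), a ratio of 0.61. Its log2 difference of −0.69 (95% interval −1.04 to −0.35) missed the threshold, at adjusted p = 0.0741, and passed it in limma-voom on the recovered reads, at 0.0471. After IR the genotypes overlapped, with a log2 difference of −0.27 (adjusted p = 0.455).

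Kl encodes klotho, the partner that makes FGF receptors responsive to FGF23 (ENSMUSG00000058488, chromosome 5, 150876072 to 150917282, plus strand). The 6 IR libraries were all below the 6 sham libraries. Levels were 29.2, 31.7 and 22.7 FPKM in cKO IR and 108, 118 and 97.8 FPKM in cKO sham. They were 35.5, 56.8 and 29.5 FPKM in WT IR against 108, 105 and 121 FPKM in WT sham. The log2 difference was −1.92 in cKO (SE 0.21, adjusted p = 4.26e-05) and −1.49 in WT (SE 0.21, adjusted p = 0.000381).

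Kl levels in sham kidneys differed little by genotype, with a log2 difference of −0.05 (95% interval −0.51 to 0.40). After IR the cKO mean was 27.9 ± 4.61 FPKM and the WT mean 40.6 ± 14.4 FPKM, a log2 difference of −0.49 that was not called (95% interval −0.94 to −0.03, adjusted p = 0.303). The hormones that act on this axis, Fgf23 and Pth, were listed at 0 FPKM in all 4 groups, and both are made mainly outside the kidney.

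Pth1r encodes the receptor for parathyroid hormone (ENSMUSG00000032492, chromosome 9, 110551153 to 110576213, minus strand). It stayed abundant after IR: 198, 195 and 127 FPKM in cKO IR against 230, 240 and 223 FPKM in cKO sham, and 207, 255 and 156 FPKM in WT IR against 226, 233 and 232 FPKM in WT sham. The cKO IR libraries were all below the cKO sham libraries, but the WT groups overlapped. The log2 difference was −0.44 in cKO (95% interval −0.87 to −0.02, adjusted p = 0.0778) and −0.19 in WT (−0.61 to 0.24, adjusted p = 0.46). Neither was called, and the sham genotypes differed by 0.00 with adjusted p = 0.998. Pth1r overlaps Myl3 on the opposite strand, which had at most 16 reads in a library.

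**Figure D2:**
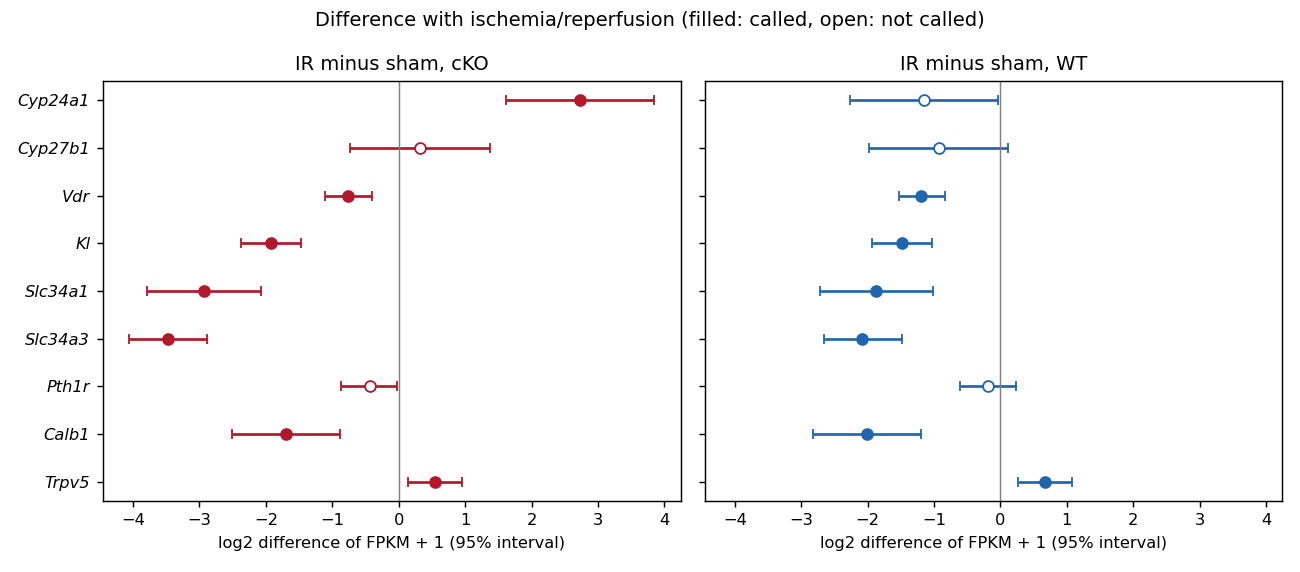
Log2 difference of IR against sham for the 9 tested members, cKO in the left panel and WT in the right; points are limma estimates on log2(FPKM + 1), lines are 95% intervals and filled points were called. Slc34a3 lies lowest in both panels, at −3.48 in cKO and −2.08 in WT, and Cyp24a1 lies at 2.73 in cKO and −1.15 in WT.

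Slc34a1 encodes NaPi-IIa, the main cotransporter by which the mouse proximal tubule recovers phosphate (ENSMUSG00000021490, chromosome 13, 55546000 to 55563405, plus strand). It had the highest FPKM of the members in sham kidneys and fell after IR in both genotypes. The cKO libraries had 193, 282 and 108 FPKM after IR and 1490, 1541 and 1152 FPKM after sham. The WT libraries had 370, 720 and 248 FPKM after IR and 1384, 1449 and 1612 FPKM after sham. No IR library reached the lowest sham library, and WT IR 2 was the highest of the IR libraries.

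The log2 difference of Slc34a1 after IR was −2.93 in cKO (SE 0.39, adjusted p = 0.000151) and −1.87 in WT (SE 0.39, adjusted p = 0.00332). As ratios of means these were 0.139 and 0.301. The cKO IR mean was 194 ± 87.0 FPKM and the WT IR mean 446 ± 245 FPKM, ranges that overlapped. That log2 difference of −1.16 was not called (95% interval −2.01 to −0.30, adjusted p = 0.227), nor was the difference between the effects of IR, −1.06 (adjusted p = 0.406). In sham kidneys the genotypes differed by −0.10 (95% interval −0.95 to 0.76).

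Slc34a3 encodes NaPi-IIc, the second cotransporter of the proximal tubule brush border, present at far lower levels (ENSMUSG00000006469, chromosome 2, 25118910 to 25124376, minus strand). It had the lowest ratio of IR to sham among the members in both genotypes. FPKM were 1.96, 2.52 and 1.68 in cKO IR and 37.2, 35.9 and 26.3 in cKO sham. They were 4.99, 10.5 and 3.94 in WT IR and 28.1, 26.2 and 31.2 in WT sham. All 3 cKO IR libraries were below all 3 WT IR libraries, which in turn were below every sham library.

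The log2 difference of Slc34a3 was −3.48 in cKO (SE 0.26, adjusted p = 6.97e-06), a ratio of 0.0619, and −2.08 in WT (SE 0.26, adjusted p = 0.000234), a ratio of 0.227. The difference between these effects was −1.40 (SE 0.37, 95% interval −2.22 to −0.58) and missed the threshold, with an adjusted p = 0.11 in limma. After IR, cKO averaged 2.05 ± 0.430 FPKM and WT 6.46 ± 3.50 FPKM (SD, n = 3 each). That log2 difference was −1.20 (95% interval −1.78 to −0.62, adjusted p = 0.15) and the exact permutation test gave p = 0.1. Without WT IR 2 it was −0.84 (adjusted p = 0.256). Within a library, Slc34a3 amounted to 0.893% to 1.55% of the Slc34a1 FPKM in cKO IR and 2.28% to 2.5% in cKO sham. The share was 1.35% to 1.59% in WT IR and 1.81% to 2.03% in WT sham. Every IR library had a smaller share than every sham library of its genotype, and the cKO sham shares lay above all WT sham shares.

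The proximal tubule markers moved with both cotransporters. The summed FPKM of 12 such markers was 721 to 1007 in cKO IR, 2945 to 3870 in cKO sham, 968 to 1855 in WT IR and 3326 to 3952 in WT sham. Of these markers 11 fell after IR in cKO and 9 in WT, and 0 rose. Their part in the lower Slc34a1 and Slc34a3 levels was not tested. In these bulk samples fewer cells of a type and less RNA per cell cannot be told apart.

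The other sodium-phosphate carriers, which are not members, went the opposite way. Slc34a2, which encodes the intestinal and lung cotransporter NaPi-IIb, had 10.0, 15.3 and 15.4 FPKM in cKO IR against 0.817, 0.769 and 1.07 FPKM in cKO sham. In WT kidneys it had 11.4, 11.1 and 6.14 FPKM after IR against 1.36, 1.46 and 0.933 FPKM after sham. It rose by a log2 difference of 2.93 in cKO (adjusted p = 6.78e-06) and 2.19 in WT (adjusted p = 6.44e-05). IR and sham libraries did not overlap.

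Slc20a1, which encodes the widely expressed carrier PiT-1, had 47.4, 61 and 31.1 FPKM in cKO IR against 6.49, 7.57 and 5.99 FPKM in cKO sham. It had 29.7, 24.9 and 27.3 FPKM in WT IR against 10.3, 11.9 and 12.9 FPKM in WT sham. The log2 difference was 2.58 in cKO (adjusted p = 7.08e-06) and 1.15 in WT (adjusted p = 0.00117). The effect of IR was larger in cKO by 1.43 (SE 0.28, adjusted p = 0.0447), the only such call among the 41 other tested genes of these pathways. This call was lost under 12 of 17 other settings, although the difference stayed between 1.21 and 1.69. It combines a lower cKO level after sham with a higher cKO level after IR. Against WT, the cKO log2 difference of Slc20a1 was −0.73 after sham (adjusted p = 0.139, limma) and 0.70 after IR (adjusted p = 0.181). Neither was called. Slc20a2, the related PiT-2, rose by 0.87 in cKO (adjusted p = 2.88e-05) and 0.27 in WT (adjusted p = 0.0264), and the WT call was lost under 4 of the 17 settings.

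Because FPKM is scaled per length, the 5 sodium-phosphate carriers can be summed. The sum was 277 ± 102 FPKM in cKO IR and 1446 ± 217 FPKM in cKO sham, and 505 ± 249 FPKM in WT IR against 1536 ± 121 FPKM in WT sham (SD, n = 3 each). Slc34a1 made up 61.1% to 74.2% of it in cKO IR and 96.3% to 96.6% in cKO sham. It made up 82.7% to 92.1% in WT IR and 96.3% to 96.5% in WT sham. The cKO IR shares lay below all WT IR shares. Slc20a1 took on average 17% of the sum in cKO IR and 0.465% in cKO sham, against 6.37% in WT IR and 0.762% in WT sham.

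**Figure D3:**
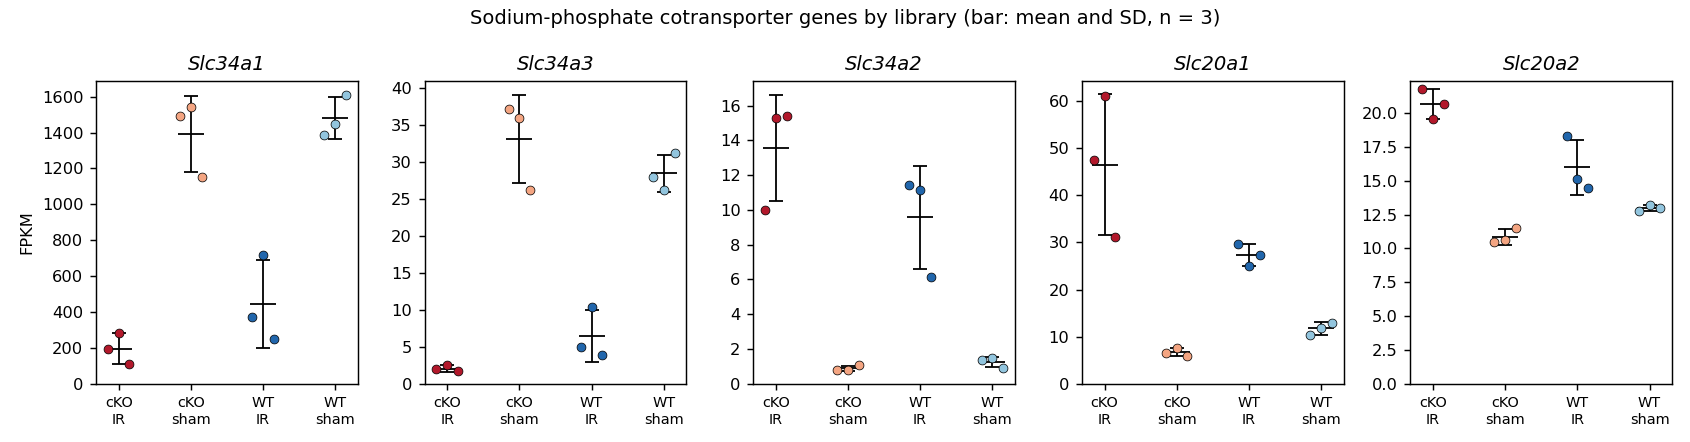
FPKM of the sodium-phosphate carriers Slc34a1, Slc34a3, Slc34a2, Slc20a1 and Slc20a2 in each library, on a linear axis from 0 for each gene, with the groups cKO IR, cKO sham, WT IR and WT sham from left to right; bars are the group mean and SD (n = 3). In IR libraries Slc34a1 and Slc34a3 are lower and Slc34a2, Slc20a1 and Slc20a2 are higher than in sham libraries of the same genotype.

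Calb1 encodes calbindin, the calcium-binding protein of distal convoluted and connecting tubule cells (ENSMUSG00000028222, chromosome 4, 15881264 to 15908064, plus strand). It fell after IR to 16.0, 12.1 and 35.8 FPKM in cKO, against 63.3, 70.4 and 59.4 FPKM in cKO sham. In WT it fell to 12.4, 24.2 and 9.31 FPKM, against 56.0, 63.1 and 60.9 FPKM in WT sham. The highest IR library, cKO IR 3, remained below the lowest sham library.

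The log2 difference of Calb1 was −1.69 in cKO (SE 0.37, adjusted p = 0.0031) and −2.01 in WT (SE 0.37, adjusted p = 0.00171). Without cKO IR 3 the cKO value was −2.13. The genotypes were not called different after IR (log2 difference 0.41, adjusted p = 0.64) or after sham (0.10, adjusted p = 0.972).

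Trpv5 encodes the channel through which calcium enters the same distal cells (ENSMUSG00000036899, chromosome 6, 41629107 to 41657703, minus strand). It did not follow Calb1. It had 10.6, 11.2 and 11.9 FPKM in cKO IR against 8.37, 7.76 and 6.07 FPKM in cKO sham, and 13.9, 8.05 and 13.3 FPKM in WT IR against 5.91, 6.45 and 8.21 FPKM in WT sham. The cKO groups did not overlap, whereas WT IR 2 lay within the WT sham range.

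Trpv5 rose by 0.55 in cKO (SE 0.19, adjusted p = 0.0295) and by 0.67 in WT (SE 0.19, adjusted p = 0.0143) on the log2 scale. Of the member calls for IR, those of Trpv5 alone were lost when single libraries were left out. With 1 library left out at a time, the cKO difference of 0.43 to 0.63 was called in 7 of 12 fits and the WT difference of 0.54 to 0.90 in 9 of 12. The genotypes differed by −0.03 after IR and by 0.10 after sham, neither called. Its close paralog Trpv6, with which reads might be shared, averaged 1.56 FPKM in cKO IR and 0.379 FPKM in cKO sham, and 1.15 FPKM in WT IR against 0.457 FPKM in WT sham.

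The 6 listed markers of the distal convoluted and connecting tubule all fell after IR in both genotypes. Their summed FPKM was 135 to 139 in cKO IR and 248 to 338 in cKO sham, and 156 to 199 in WT IR and 285 to 340 in WT sham. Calb1 moved with these markers and Trpv5 moved against them, and their part in either result was not tested.

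**Figure D4:**
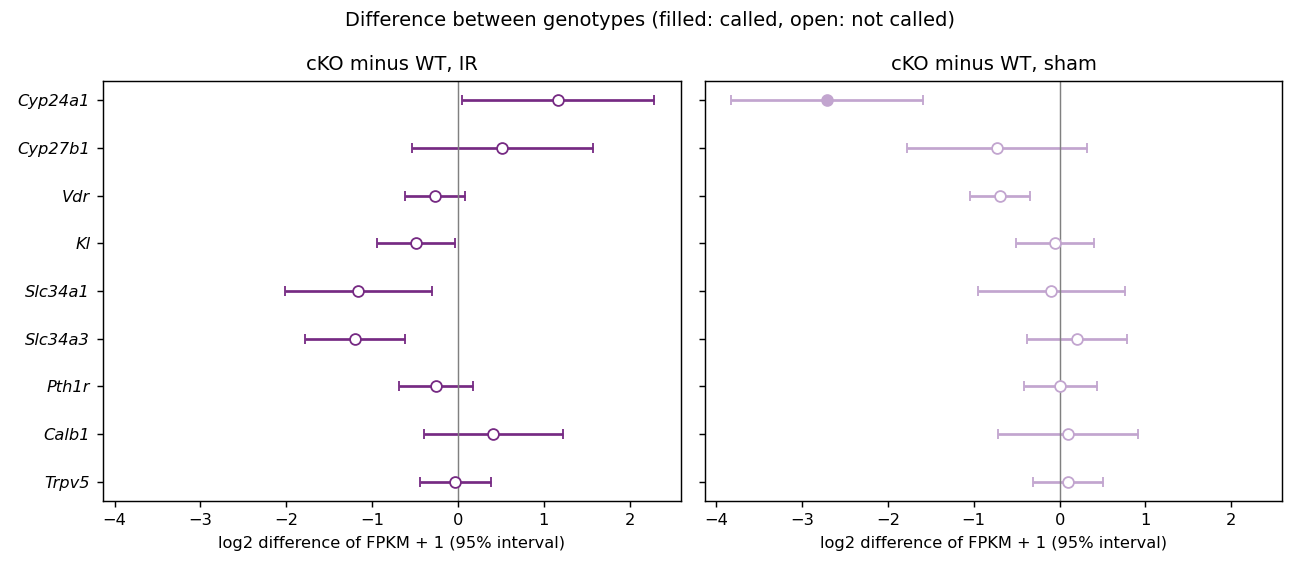
Log2 difference of cKO against WT for the 9 tested members, IR in the left panel and sham in the right; points are limma estimates on log2(FPKM + 1), lines are 95% intervals and filled points were called. Cyp24a1 in sham, at −2.71, is the only filled point; in IR, Slc34a3 and Slc34a1 lie at −1.20 and −1.16 without a call.

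Taking the order of group means, 3 members (Vdr, Kl and Slc34a1) ran from WT sham, through cKO sham and WT IR, to cKO IR. Only Vdr showed a gap between the sham genotypes in that order, and the WT IR and cKO IR libraries overlapped for all 3. Slc34a3 ran from cKO sham through WT sham and WT IR to cKO IR, with gaps at every step below the sham groups. Cyp24a1 ran from cKO IR through WT sham and WT IR to cKO sham, and the single gap was above cKO sham. For Cyp27b1, Cyp2r1 and Pth1r every neighbouring pair of groups in the order overlapped.

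Other genes of the same pathways were counted from a list of 50, of which 41 were tested. In cKO 6 rose and 18 fell after IR, where 27.8% and 23.1% of all tested genes were called higher and lower. In WT 5 rose and 18 fell, where these shares were 22.6% and 19.5%. With plain library totals the WT counts were 10 and 13, and the cKO counts 6 and 17. Of all 12908 genes tested with that scaling, 4168 were called higher and 1844 lower in WT, and 3967 and 2682 in cKO. In both comparisons of cKO with WT, 0 of the 41 rose and 0 fell.

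Of 11 tested genes for vitamin D uptake, activation and receptor partners, 7 fell and 0 rose in each genotype, with a median log2 difference of −0.38 in both. With plain library totals 6 fell and 0 rose in cKO, and 4 fell and 1 rose in WT. Lrp2, which encodes megalin, the receptor that takes up vitamin D with its carrier, averaged 65.7 ± 5.84 FPKM in cKO IR and 235.7 ± 35.8 FPKM in cKO sham, and 101 ± 35.8 FPKM in WT IR against 217 ± 19.6 FPKM in WT sham. Its log2 difference was −1.82 in cKO (adjusted p = 6.44e-05) and −1.15 in WT (adjusted p = 0.00164). Its partner Cubn (cubilin) fell, at −1.51 in cKO and −0.79 in WT, as did Cyp27a1, a mitochondrial sterol hydroxylase that can also act on vitamin D, at −1.23 and −1.02. Rxra, the partner of the vitamin D receptor on DNA, stood at −0.38 in cKO (adjusted p = 0.00659) and −0.26 in WT (adjusted p = 0.044). In WT the calls of Rxra and Amn (amnionless, which anchors cubilin) were each lost under 12 of 17 other settings, and those of Fdx1 and Fdxr, which supply electrons to mitochondrial hydroxylases, under 7 and 5. The Fdx1 call in cKO was lost under 14.

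Among phosphate transport and scaffold genes, 4 of 11 rose and 3 fell in each genotype. The shares of all tested genes called higher and lower were 27.8% and 23.1% in cKO and 22.6% and 19.5% in WT. With plain library totals the WT counts were 4 and 2. The WT fall of Xpr1 (−0.24) was lost under 11 of 17 other settings. Besides the 3 carriers above, Ezr, which encodes the membrane linker ezrin, rose by 0.75 in cKO and 0.62 in WT. Pdzk1, a scaffold that binds NaPi-IIa, fell to 76.8 ± 10.8 FPKM in cKO IR against 195.2 ± 4.50 FPKM in cKO sham. It fell to 101.5 ± 31.0 FPKM in WT IR against 171.9 ± 18.3 FPKM in WT sham. Of 9 tested FGF23 and PTH signalling genes, 1 rose and 3 fell in cKO, and 0 rose and 3 fell in WT, where plain library totals gave 3 and 2. Among the FGF receptors, Fgfr2 fell, with −0.46 in cKO and −0.49 in WT, and Fgfr3 fell, with −0.58 in cKO and −0.90 in WT. Fgfr4 fell in cKO (−0.79, adjusted p = 0.00546) and was not called in WT (−0.48, adjusted p = 0.0632). Fgfr1, which encodes the FGF receptor best known as klotho's partner, was not called and averaged 8.38 FPKM in cKO IR and 8.03 FPKM in cKO sham, and 8.05 FPKM in WT IR against 7.39 FPKM in WT sham.

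Of 10 tested genes listed for calcium and magnesium handling, 1 rose and 5 fell in each genotype. The list was not limited to transporters, and the 5 included Klk1, which does not encode one (−1.11 in cKO and −0.78 in WT). Casr, which encodes the calcium-sensing receptor, fell, with −1.94 in cKO (adjusted p = 1.11e-05) and −1.08 in WT (adjusted p = 0.000556). Slc8a1, the sodium-calcium exchanger through which calcium leaves distal cells, fell, with −1.15 in cKO (adjusted p = 0.000337) and −1.36 in WT (adjusted p = 0.000241). Atp2b1, a calcium pump of the plasma membrane, was the tested gene that rose, by 0.40 in cKO and 0.45 in WT. Trpv6, given above, and Cldn14 were below the filter and not tested, and both had higher means after IR. Cldn14 averaged 0.899 FPKM in cKO IR and 0.0211 FPKM in cKO sham, and 1.05 FPKM in WT IR against 0 FPKM in WT sham. S100g, which encodes the smaller calbindin, was not called, at −0.40 in cKO (adjusted p = 0.162) and −0.50 in WT (adjusted p = 0.1).

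Profiles were compared by the root mean square difference of log2(FPKM + 1) over the 12 libraries, each gene centred on its own mean, as a description with no test. Among the 9 tested members, Slc34a1 and Slc34a3 differed by 0.31, the smallest value, and Cyp24a1 and Slc34a3 by 2.32, the largest. Slc34a3 was at 1.68 to 2.52 FPKM in cKO IR, where this scale shrinks differences. The ranking was not repeated without the added 1. Cyp2r1, below the expression filter, was left out of this comparison. The genes closest to Slc34a1 were Nat8f1 (0.193), Akr1c21 (0.199) and Nlrp6 (0.206). The genes closest to Slc34a3 were Car14 (0.181), Cyp2d26 (0.207) and Miox (0.237). Kl was closest to Smarca2 and Macrod2 (0.104 each) and Acox3 (0.113), and Calb1 to Ido2 (0.272), Slc2a5 (0.345) and Slc39a8 (0.346). Vdr was closest to Gm15883 (0.13), Gm18290 (0.147) and Cyp2j7 (0.162). Group means were 0.627 to 2.83 FPKM for Gm18290 and 0.351 to 2.24 FPKM for Cyp2j7, against 24 to 67.3 FPKM for Vdr. Those of Ido2 were 0.83 to 4.33 FPKM. At such low levels the added 1 shrinks differences, so these matches do not mean equal fold changes. Pth1r, whose own SD was 0.276, was closest to Msrb1 (0.0802), Lama1 (0.0829) and Poli (0.0839). Trpv5, with an SD of 0.37, was closest to Tnfsf12 (0.125), Fam126a (0.134) and Acvr1 (0.136).

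Cyp24a1 had no near match. Its closest genes were Misp3 (0.845), Pdk4 (0.847) and Slc16a1 (0.85), against its own SD of 1.26 over the libraries. Cyp27b1, with an SD of 0.648, was closest to S1pr1 (0.32), Sema4c (0.327) and Ednrb (0.369).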

How the data were processed

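The authors deposited 1 table of FPKM per gene and library with gene lengths. Per the submitters' processing notes, HISAT2 2.2.1 and the builds mm8 and mm9 were used. Deposited gene positions do not match the GRCm38.p6 promoter windows and cannot be set beside them. For Slc34a1 the deposited gene begins at 55546000, whereas the promoter window ends at 55399697. The sources used here do not give the counting program, annotation or strand setting. FPKM times gene length came out as whole multiples of 1 read for 100% of values, within 1e-06, and gave the reads per gene. The library size used by the authors was 0.933 to 1.126 times the sum of these reads.

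Log2(FPKM + 1) of the deposited values was fitted in limma 3.58.1 (R 4.3.3), with 1 mean per group, all 12 libraries and a variance trend (8 residual and 2.59 prior degrees of freedom). Genes averaging 1 FPKM or more were tested, and p-values were adjusted over all 12868 in each of 5 comparisons. The fit was checked on simulated counts with the same spread setting in every group and far fewer changed genes than were called here. That check did not cover genes whose spread differs between groups. Members were also compared by exact permutation tests of FPKM. Genes named are the 10 members, the 3 nearest profiles of each tested member, and genes of the pathway and marker lists. Members and lists were chosen with earlier results of these data known, and the motifs and the markers set beside Cyp27b1 after values were seen. Alternatives were a pseudocount of 0.1 FPKM, no filter, plain library totals, limma-voom on recovered reads, a replicate block and leaving out each library.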

Additional observations from a re-analysis of the deposited data

Results flagged for a closer look

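The effect of IR on Cyp24a1 differed between the genotypes. The test of that difference gave 3.88 on the log2 scale (SE 0.72, adjusted p = 0.0358, limma). It was called in 3 of 12 fits with 1 library left out and was not called with no expression filter (adjusted p = 0.0837). The gene was higher after IR than after sham in cKO kidneys (2.73) and had the opposite sign in WT kidneys (−1.15, not called), and the cKO sham libraries were below every other library. No other tested member had such a difference after adjustment over all genes.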

How the results depend on the processing

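The falls of Vdr, Kl, Slc34a1, Slc34a3 and Calb1 after IR, and the rise of Cyp24a1 after IR in cKO, were called under every alternative run. With plain library totals in place of the authors' scaling the median of all genes after IR in WT was 0.13 (0.01 with the deposited scaling), 69.3% of called genes were higher (53.7% as deposited), and for the difference of the IR effect 20.7% were higher (33.6% as deposited). No member's call changed with that scaling. With no filter, Trpv5 in cKO IR (0.55, adjusted p = 0.0662), Cyp24a1 in cKO sham (−2.71, 0.0707) and the Cyp24a1 difference of effects (3.88, 0.0837) were no longer called, which left 0 members in the last 2 comparisons. Limma-voom called 2 members between the sham genotypes, adding Vdr (−0.67, 0.0471). Between the IR genotypes, where 0 genes were called, 1 was called with a pseudocount of 0.1 FPKM, with plain totals and with limma-voom, and 9 with no filter.

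Of 18 same-numbered pairs of libraries, 4 had a correlation of deviations over 0.1 (−0.186 to 0.401), and the main fit used no pairing. The highest was that of WT IR 3 with cKO IR 3. With cKO IR 1 and cKO IR 2, WT IR 3 gave −0.283 and −0.237. The cause of the high value was not tested. With a replicate block Cyp24a1 in WT IR (−1.15, adjusted p = 0.0176) and Pth1r in cKO IR (−0.44, 0.0431) were called, and 73 genes, against 113 without it, differed in the effect of IR.

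Leaving out 1 library gave 6 to 8 members called after IR in cKO, 5 to 7 in WT, 0 to 2 between sham genotypes and 0 to 1 for the difference of effects. Over all genes it gave 53 to 209 between sham genotypes, 0 to 12 between IR genotypes and 36 to 148 for the difference of effects. Log2 differences ranged over the 12 fits as follows. For Cyp24a1 they were −1.58 to −0.92 (IR in WT), 0.59 to 1.61 (IR genotypes), −2.90 to −2.45 (sham genotypes) and 3.30 to 4.32 (difference of effects). For Cyp27b1 they were −0.24 to 0.93 (IR in cKO), −1.20 to −0.68 (IR in WT) and −0.04 to 1.13 (IR genotypes). For Trpv5 they were 0.43 to 0.63 (IR in cKO), 0.54 to 0.90 (IR in WT), −0.25 to 0.10 (IR genotypes) and −0.35 to 0.01 (difference of effects). For Calb1 they were −0.02 to 0.78 (IR genotypes) and −0.12 to 0.68 (difference of effects). Between the IR genotypes Vdr ranged from −0.37 to −0.08, Kl from −0.68 to −0.22 and Slc34a1 from −1.51 to −0.74, and the Slc34a1 difference of effects from −1.41 to −0.65. Pth1r ranged from −0.55 to −0.23 (IR in cKO), −0.36 to −0.00 (IR in WT) and −0.02 to 0.03 (sham genotypes), and between the sham genotypes Vdr from −0.75 to −0.60, Kl from −0.12 to 0.02, Slc34a1 from −0.17 to 0.04, Calb1 from 0.03 to 0.15 and Trpv5 from 0.01 to 0.22. The 13 values that changed sign, among 540, were never called.

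The same settings, applied to the other pathway genes after the data were seen, kept 39 of 48 calls throughout and reversed 0. The cause of a lost call was not tested.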
